A study of Homo sapiens with 18 samples.

Results

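Open chromatin of HEK293T cells labelled UBR7KO was set against that of the parental cells. Its data were the 4 ATAC-seq libraries of a series of 18 samples, 2 of UBR7KO cells and 2 of parental cells, taken by the genotype in the labels, with the 110266 peaks that the authors called in them and the 2 sets of regions in which the authors intersected the replicates of a genotype. HEK293T is an established human embryonic kidney cell line. UBR7KO cells are labelled as a CRISPR-Cas9 knockout of UBR7, parental cells as parental, and both were grown untreated in the same serum-containing medium. Each library was made from 5000 cells. The description of both UBR7KO ATAC libraries shares a code with 1 RNA library titled UBR7KO2, so the 2 libraries appear to come from 1 knockout line, which the labels do not state. Whether the replicates were separate cultures is not stated either, and spread between them may be technical. The peak lists name UBR7KO 1 and parental 1 for replicate number 1, and UBR7KO 2 and parental 2 for replicate number 2.

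ATAC-seq uses a transposase that inserts sequencing adapters where DNA is free of tightly packed nucleosomes, so that peaks mark open chromatin. Gene starts of active genes and distal enhancers are the usual places of such peaks, and nucleosome-free DNA at a start lets transcription factors and RNA polymerase bind. UBR7 is a UBR box protein that the series title names as a chaperone of histone H3, and histone chaperones such as NASP, ASF1 and the CAF-1 complex hand H3 and H4 to and from nucleosomes. The question was where open chromatin differs between UBR7KO and parental cells.

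Promoters of 5 genes are shown because they stand for the 3 outcomes described in the next paragraphs. The starts of UBR7 and of the H3-H4 chaperone ASF1A were open in all 4 libraries, the start of CDKAL1 was open in both UBR7KO libraries alone, and the starts of PKIG and SYTL4 were open in both parental libraries alone. The sequences are those of RefSeq (GRCh38.p14), from 250 bases before to 50 bases after the start, at chr14:93207006-93207305 on the plus strand, chr6:118893902-118894201 on the plus strand, chr6:20534207-20534506 on the plus strand, chr20:44531625-44531924 on the plus strand and chrX:100732072-100732371 on the minus strand. Capitals mark matches to a GC box (GGGCGG), to CCAAT or to TATAAA, each searched on both strands with overlapping matches allowed.
UBR7: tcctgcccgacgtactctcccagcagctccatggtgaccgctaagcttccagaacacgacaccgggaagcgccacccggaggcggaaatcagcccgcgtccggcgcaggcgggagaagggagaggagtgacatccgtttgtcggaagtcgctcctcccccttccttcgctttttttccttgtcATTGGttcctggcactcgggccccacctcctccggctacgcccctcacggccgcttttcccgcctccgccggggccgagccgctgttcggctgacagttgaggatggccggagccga
ASF1A: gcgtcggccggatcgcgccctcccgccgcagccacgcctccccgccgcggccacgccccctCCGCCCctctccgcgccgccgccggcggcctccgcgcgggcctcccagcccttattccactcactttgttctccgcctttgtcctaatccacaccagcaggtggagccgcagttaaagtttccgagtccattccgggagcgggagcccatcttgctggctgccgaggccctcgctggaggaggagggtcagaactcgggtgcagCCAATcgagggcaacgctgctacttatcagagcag
CDKAL1: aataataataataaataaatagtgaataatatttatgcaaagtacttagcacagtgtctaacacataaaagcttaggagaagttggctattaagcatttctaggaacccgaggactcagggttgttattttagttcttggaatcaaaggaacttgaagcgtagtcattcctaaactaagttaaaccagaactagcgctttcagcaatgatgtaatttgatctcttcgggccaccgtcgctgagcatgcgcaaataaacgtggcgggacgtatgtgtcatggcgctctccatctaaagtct
PKIG: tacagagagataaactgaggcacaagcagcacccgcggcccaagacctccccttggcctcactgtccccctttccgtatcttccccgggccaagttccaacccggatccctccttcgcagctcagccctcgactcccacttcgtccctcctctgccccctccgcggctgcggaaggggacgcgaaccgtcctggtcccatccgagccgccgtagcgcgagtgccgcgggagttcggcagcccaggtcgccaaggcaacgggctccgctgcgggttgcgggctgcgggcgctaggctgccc
SYTL4: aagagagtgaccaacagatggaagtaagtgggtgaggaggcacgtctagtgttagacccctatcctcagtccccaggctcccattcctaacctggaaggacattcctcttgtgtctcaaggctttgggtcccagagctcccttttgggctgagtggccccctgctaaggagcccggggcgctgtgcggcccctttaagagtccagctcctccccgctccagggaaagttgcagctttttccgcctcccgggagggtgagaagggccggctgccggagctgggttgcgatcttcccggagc
UBR7 held 1 CCAAT match on the opposite strand and ASF1A held 1 GC box and 1 CCAAT match. The other 3 promoters held no match, which says only that these letters are not in these windows. Of all 35116 promoters in the RefSeq table, 44.95% held the GC box, 34.6% CCAAT and 11.5% TATAAA. GC content was 65.7% for UBR7, 69.0% for ASF1A, 39.0% for CDKAL1, 68.7% for PKIG and 60.7% for SYTL4. A start counted as open with a peak within 1 kb, which need not lie inside the window shown. At SYTL4 the peaks of parental 1 and 2 lay 337 and 315 bases from the start in the RNA table. The peak files use GRCh37-type coordinates, so whether a peak lies inside these windows was not read.

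Both UBR7KO libraries had more peaks than the parental library of the same replicate number. UBR7KO 1 had 15310 peaks and parental 1 had 10507, a ratio of 1.46. UBR7KO 2 had 45920 peaks and parental 2 had 38529, a ratio of 1.19. Replicate number 2 thus held more peaks than number 1 in both genotypes, and this spread was larger than the difference between genotypes. The mean was 30615 ± 21645 peaks in UBR7KO and 24518 ± 19815 in parental cells (SD, n = 2 each), with p = 0.667 in an exact two-sided permutation test, where the smallest p that 2 against 2 libraries allow is 0.333. The ratio of the means, 1.25, turned to 0.795 without parental 1 and to 0.624 without UBR7KO 2. With peaks of −log10 q, the peak caller's significance, of at least 5 the ratio was 2.54, from 295 peaks in UBR7KO 1 and 281 in parental 1, and 7331 in UBR7KO 2 and 2719 in parental 2. The lists hold no read counts, so the depth behind them is unknown.

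Peaks covered 8.09 Mb in UBR7KO 1 against 4.81 Mb in parental 1, and 17.4 Mb in UBR7KO 2 against 15.7 Mb in parental 2. The median peak was 462 bases wide in UBR7KO 1 and 393 in parental 1, but 266 bases wide in UBR7KO 2 and 307 in parental 2. UBR7KO peaks were therefore wider in replicate number 1 and narrower in number 2, and the exact permutation p of the medians was 1. The shortest peaks were 168 and 163 bases long in UBR7KO 1 and parental 1, and 93 and 109 bases long in UBR7KO 2 and parental 2. Peaks under 200 bases made up 10.0% of the list in UBR7KO 1 and 12.8% in parental 1, against 39.7% in UBR7KO 2 and 32.6% in parental 2. Peaks of at least 1000 bases made up 8.05% in UBR7KO 1 and 4.11% in parental 1, and 5.67% in UBR7KO 2 and 5.94% in parental 2.

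A smaller share of the UBR7KO peaks lay at gene starts. Of the peaks in UBR7KO 1, 63.0% lay within 1 kb of a start in the authors' list of 13176 gene starts, against 71.2% in parental 1. In UBR7KO 2 the share was 23.0%, against 26.7% in parental 2. The share was lower in UBR7KO in both replicate numbers, with differences of −8.18 and −3.65 points. The replicate numbers lay farther apart than the genotypes, and the exact permutation test, which ignores replicate numbers, gave p = 0.667. At equal list lengths the share was 65.4% in UBR7KO 1 and 71.2% in parental 1, and 25.8% in UBR7KO 2 and 26.7% in parental 2, a mean difference of −3.31 points. With −log10 q of at least 5 the mean difference was −1.79 points, and replicate number 2 turned, with 19.8% in UBR7KO 2 and 19.1% in parental 2. The mean difference of −5.91 points over all peaks turned to 16.3 without parental 1 and to 14.1 without UBR7KO 2, where replicate number 1 of a genotype stands against number 2 of the other or against both. In numbers, 9641 peaks of UBR7KO 1 and 7476 of parental 1 lay at a start, and 10567 of UBR7KO 2 and 10271 of parental 2. Peaks beyond 100 kb of any listed start numbered 2304 in UBR7KO 1 and 1232 in parental 1, and 17501 in UBR7KO 2 and 13330 in parental 2.

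**Figure D1:**
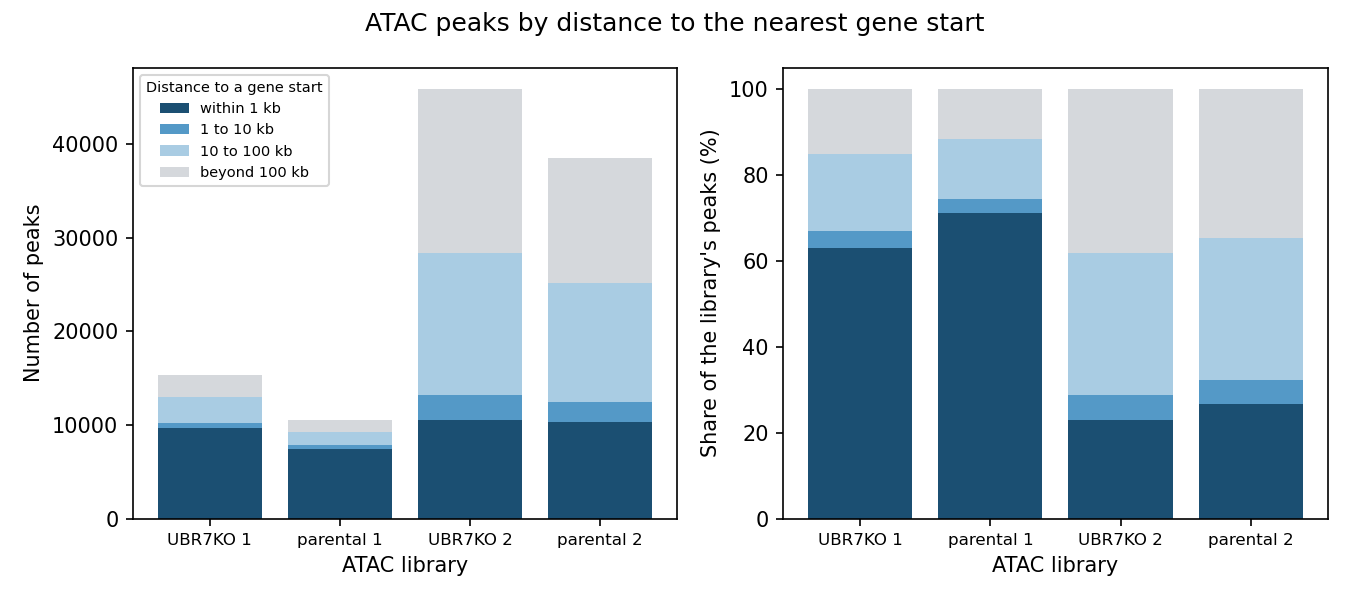
ATAC peaks of the 4 libraries by distance to the nearest start in the authors' list, as numbers (left) and as shares of each library's peaks (right). UBR7KO 1 and parental 1 hold 63.0% and 71.2% of their peaks within 1 kb of a start, UBR7KO 2 and parental 2 hold 23.0% and 26.7%, and the extra peaks of replicate number 2 lie mostly beyond 10 kb.

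With the starts of the RNA table added, the median width of a peak at a start was 551 bases in UBR7KO 1 and 433 in parental 1, and 671 bases in UBR7KO 2 and 648 in parental 2. Peaks at starts were thus wider in UBR7KO in both replicate numbers. Distal peaks, those more than 1 kb from any of these starts, had a median width of 301 bases in UBR7KO 1 and 280 in parental 1, and 190 bases in UBR7KO 2 and 220 in parental 2. Of the peaks at a start, 10.98% in UBR7KO 1 and 4.76% in parental 1 were at least 1000 bases wide, and 18.6% in UBR7KO 2 and 17.1% in parental 2.

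Parental peaks were found in UBR7KO more often than the other way round. Of the UBR7KO 1 peaks 57.3% shared at least 1 base with a peak of parental 1, and of the parental 1 peaks 83.6% shared one with UBR7KO 1. Of the UBR7KO 2 peaks 56.5% were found in parental 2, and of the parental 2 peaks 67.1% in UBR7KO 2. In each case the longer list had the smaller share. Within a genotype, 93.3% of the UBR7KO 1 peaks were found in UBR7KO 2 and 94.0% of the parental 1 peaks in parental 2. Across genotypes, 90.3% of the UBR7KO 1 peaks were found in parental 2 and 94.7% of the parental 1 peaks in UBR7KO 2. Such high shares were thus not particular to a genotype. The reverse shares within a genotype were 31.6% of UBR7KO 2 peaks in UBR7KO 1 and 25.8% of parental 2 peaks in parental 1. The UBR7KO list of each replicate number was also cut by −log10 q to the length of the parental list, the shorter one. The mean shares found in the other genotype were then 59.9% for UBR7KO peaks and 59.9% for parental peaks.

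The authors' replicate-intersected sets held 14517 regions for UBR7KO and 9933 for parental cells. In the UBR7KO set 60.0% of the regions overlapped the parental set, and in the parental set 87.6% overlapped the UBR7KO set. Without a partner were 5811 UBR7KO regions and 1231 parental regions. Of these, 87.1% of the UBR7KO regions and 90.1% of the parental regions nevertheless overlapped a peak in at least 1 library of the other genotype. Gene starts within 1 kb were found for 69.6% of the UBR7KO regions and 77.4% of the parental regions. The median width was 404 bases in the UBR7KO set and 357 in the parental set, and at gene starts 480 and 396 bases, while distal regions had medians of 239 and 237 bases. Each set is 1 value made from 2 libraries and allows no test.

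Joining the 4 lists where they share a base gave 59275 regions, of which 8794 (14.8%) were open in all 4 libraries. Of the regions open in all 4, 83.2% lay within 1 kb of a start, against 21.3% of all regions, and their median merged width was 923 bases against 288. Open in UBR7KO 2 and parental 2 alone were 10962 regions, of which 10.4% lay at a start. Open in every library but parental 1 were 4867 regions, and in every library but UBR7KO 1 were 1002.

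Regions open in both UBR7KO libraries and in no parental library numbered 588, or 0.992% of all regions. The reverse pattern, open in both parental libraries and in no UBR7KO library, was found for 98 regions, or 0.165%. These counts had no test, since they are patterns of presence over 4 lists of unequal length. In lists of equal length within each replicate number, 280 regions were open in UBR7KO alone and 354 in parental cells alone, so the excess of UBR7KO regions did not hold there. Only the UBR7KO lists, the longer ones, were cut for this, by −log10 q. A region counted there as parental alone may thus have a UBR7KO peak that was cut. The turn follows at least in part from this cut, so it does not decide on the excess. With peaks of −log10 q of at least 5 the counts were 45 and 15. Leaving out a library or a replicate number moved the UBR7KO count to between 620 and 19962 and the parental count to between 116 and 12673, since 1 library then stands for a genotype. The UBR7KO count exceeded the parental one except without parental 1, with 620 and 12406.

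**Figure D2:**
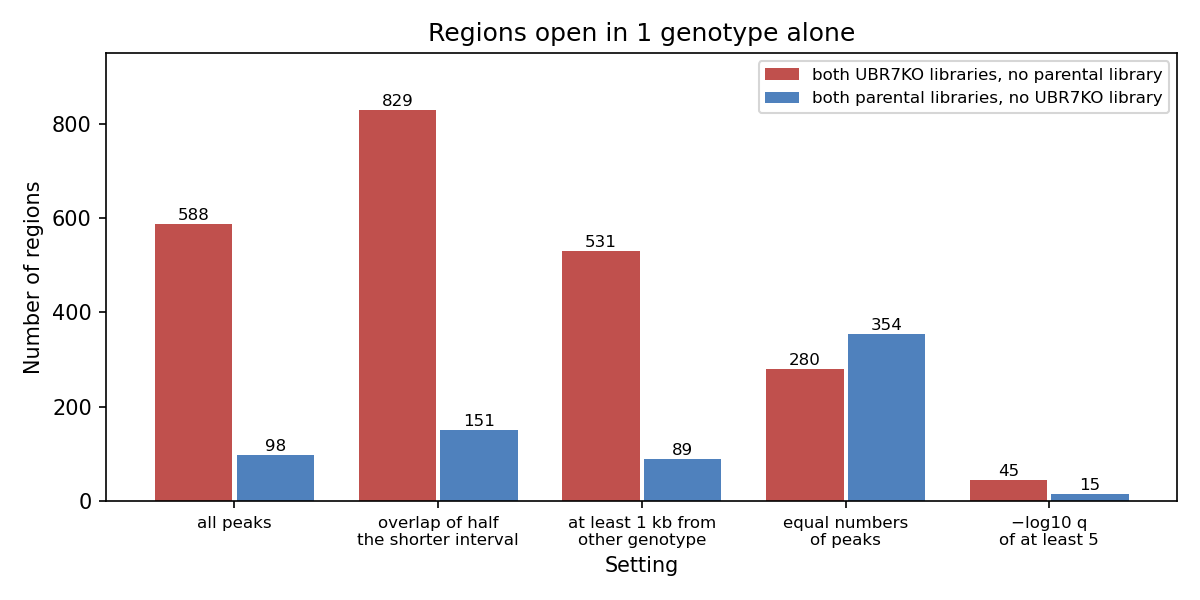
Number of regions open in both UBR7KO libraries and no parental library, and in both parental libraries and no UBR7KO library, under 5 settings. All peaks give 588 and 98 regions, and lists of equal length within each replicate number give 280 and 354. For equal length only the UBR7KO lists were cut.

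Of the 588 UBR7KO regions 149 (25.3%) lay within 1 kb of a start, and of the 98 parental regions 11 (11.2%), against 21.3% of all regions. Their median merged width was 409.5 bases for UBR7KO and 351.5 for parental regions, against 288 bases for all regions and 923 for those open in all 4 libraries. The 588 regions covered a median of 268 bases in UBR7KO 1 and 282.5 in UBR7KO 2, and the 98 regions a median of 226 bases in parental 1 and 299.5 in parental 2. The peaks were of middling rank: in both libraries above the median −log10 q of their list were 19.9% of the UBR7KO regions and 26.5% of the parental regions. A peak of the other genotype lay within 1 kb of 57 UBR7KO regions (9.69%) and 9 parental regions (9.18%), and none within 10 kb of 60.0% and 59.2%. The counts at least 1 kb from any peak of the other genotype were 531 for UBR7KO and 89 for parental cells.

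Among the UBR7KO regions at gene starts, the 10 with the highest rank of −log10 q in both libraries are described next. At CDKAL1, which modifies a tRNA base, the region at chr6:20534539-20535055 covered 433 bases in UBR7KO 1 and 512 in UBR7KO 2, with no peak in either parental library and the nearest parental peak 5736 bases away. At PSD4, an exchange factor for the GTPase ARF6, the region at chr2:113914724-113915496 covered 545 and 735 bases in UBR7KO 1 and 2, and the nearest parental peak lay 19906 bases away. Both regions covered the gene start in at least 1 UBR7KO library. At FOXF1, a forkhead transcription factor of mesoderm, 933 and 198 bases were open in UBR7KO 1 and 2, 20 bases from the start, and the nearest parental peak lay 44489 bases away.

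At PCDHAC1, a clustered protocadherin, 190 and 421 bases were open in UBR7KO 1 and 2, and no parental peak lay within 63271 bases. At TIMP4, an inhibitor of matrix metalloproteinases, the values were 208 and 284 bases, and at SAMD8, a sphingolipid enzyme, 175 and 170 bases. These 3 starts were thus open in both UBR7KO libraries and far from any parental peak. KRTAP5-5, a keratin-associated protein gene, had 255 and 216 bases, 764 bases from its start. NR_024108, a transcript known here by its accession in the list of starts, had 867 and 918 bases. For 2 of the 10 regions the difference depended on the start or the edge. At CHST3, a chondroitin sulfotransferase, 569 and 477 bases were open in UBR7KO 1 and 2, while parental 2 had a separate peak 38 bases from the region. At PCBP4, an RNA-binding protein, the region with 380 and 143 bases lies at a listed start, and its start in the RNA table was open in every library but parental 1.

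Among the 11 parental regions at gene starts, the 10 ranked highest held several edge cases. At PKIG, an inhibitor of protein kinase A, no bases were open in UBR7KO 1 and 2 and 189 and 161 bases in parental 1 and 2 (chr20:43160432-43160670), with the nearest UBR7KO peak 9435 bases away. At SYTL4, a RAB27 effector of secretory granules, parental 1 and 2 had 423 and 338 open bases (chrX:99986351-99986795), and the nearest UBR7KO peak lay 37041 bases away. RPL23, a protein of the large ribosomal subunit, had 251 and 564 open bases in parental 1 and 2, with the nearest UBR7KO peak 15305 bases away. These 3 starts had peaks in parental cells alone, but some of the peaks were weak. In parental 1 and 2 the −log10 q was 2.48 and 0.78 at PKIG, 0.70 and 0.87 at SYTL4, and 0.71 and 4.14 at RPL23. The list medians were 1.07 and 1.33.

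SRCIN1, an inhibitor of SRC kinase, had 650 and 593 open bases in parental 1 and 2 and its nearest UBR7KO peak 6808 bases away, and FRMD4B, a scaffold protein gene, 292 and 871 bases with 4609 bases to the nearest UBR7KO peak. RING1, a ubiquitin ligase of Polycomb repressive complex 1, had 163 and 109 bases in the parental region, but a peak of UBR7KO 1 touched the region. PITPNC1, a phosphatidylinositol transfer protein, had a UBR7KO peak 171 bases from its region, and the pseudogene BCRP7 one 528 bases away. KCNV1, a modifier subunit of potassium channels, had one 885 bases away. At CCT6B, a chaperonin subunit gene, the region lay at a listed start while its start in the RNA table was open in all 4 libraries. BCRP7 belongs to a family of near-identical copies, so its reads may be shared.

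Of the distal regions, the 5 ranked highest in UBR7KO lay between 8.195 and 122.823 kb from the nearest start. The nearest genes were FAM3C, CYP2J2, CTD-2147F2.1, GPR19 and GRIP1, and nothing here ties a region to them. The region nearest CTD-2147F2.1 was the widest, with 785 and 766 open bases in UBR7KO 1 and 2 and no parental peak within 62873 bases. The region 93.767 kb from FAM3C had 320 and 287 open bases in UBR7KO 1 and 2. The 5 parental ones lay between 12.351 and 558.112 kb from a start, nearest to REST, a repressor of neuronal genes, and to PRSS23, PRKD2, CAND2 and FYB2. The region 33.394 kb from REST had 163 and 406 open bases in parental 1 and 2, and no UBR7KO peak lay within 33111 bases.

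Gene starts were scored as open where a peak lay within 1 kb, for the 14162 genes of the RNA table outside the mitochondrial genome. Open were 9830 starts (69.4%) in UBR7KO 1 and 7732 (54.6%) in parental 1, and 11637 (82.2%) in UBR7KO 2 and 11294 (79.7%) in parental 2. The UBR7KO library was higher in both replicate numbers, by 14.8 and 2.42 points (mean difference 8.62 points, exact permutation p = 0.667). In replicate number 1, 2449 starts (17.3%) were open in UBR7KO and not in parental cells and 351 (2.48%) in parental cells and not in UBR7KO. In number 2 these were 534 (3.77%) and 191 (1.35%). Only the UBR7KO lists were cut to reach equal length. In lists of equal length 49.9% were open in UBR7KO 1 and 54.6% in parental 1, and 77.2% in UBR7KO 2 and 79.7% in parental 2, so the direction turned (−3.60 points). Without parental 1 it also turned, with a mean difference of −3.96 points.

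Starts open in both UBR7KO libraries and no parental library numbered 110, or 0.777% of all starts, and those open in both parental libraries and no UBR7KO library 9, or 0.0636%. In lists of equal length the counts were 55 and 120, where a start whose UBR7KO peak was cut can count as parental alone. With a library or a replicate number left out they ran from 124 to 2449 for UBR7KO and from 12 to 351 for parental cells, and without parental 1 they were 124 and 161. Without UBR7KO 2 they were 133 and 329. Open in all 4 libraries were 7361 starts and in none 2301. Of the 110 genes 92.7% were protein coding, against 88.6% of all genes.

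Openness followed the RNA level of the gene in every library. Genes were split by mean RNA level into 4 classes of equal size. In the lowest class, 46.3% of starts were open in UBR7KO 1 and 33.0% in parental 1, and 62.0% in UBR7KO 2 and 58.1% in parental 2. In the highest class the shares were 83.8% in UBR7KO 1 and 69.8% in parental 1, and 92.0% in UBR7KO 2 and 91.0% in parental 2. Of the 110 starts open in UBR7KO alone, 49 belonged to the lowest class, 26 and 20 to the middle classes and 15 to the highest. In lists of equal length the UBR7KO library was below the parental one in each class of both replicate numbers, with the largest difference, −8.27 points, in the highest class of replicate number 1.

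**Figure D3:**
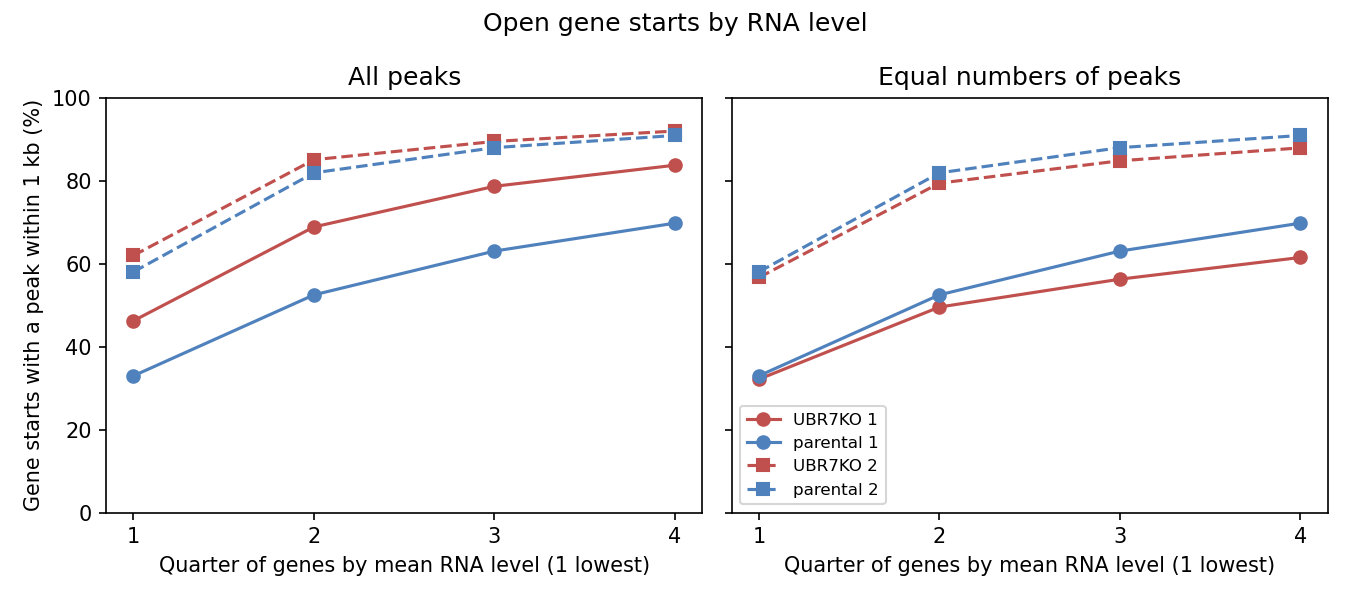
Share of gene starts with a peak within 1 kb, by class of mean RNA level, in the 4 libraries, for all peaks (left) and for lists of equal length within each replicate number (right). With all peaks both UBR7KO lines lie above the parental line of their replicate number, and with equal lengths they lie below it. For equal length only the UBR7KO lists were cut.

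Among gene biotypes, 72.3% of the 12541 protein-coding starts were open in UBR7KO 1 and 57.0% in parental 1, and 85.6% in UBR7KO 2 and 83.1% in parental 2. Starts of the 412 lincRNAs were less often open, with 44.2% in UBR7KO 1 and 35.9% in parental 1, and 53.6% in UBR7KO 2 and 51.7% in parental 2. Of the 359 pseudogenes 36.8% were open in UBR7KO 1 and 28.4% in parental 1, and 47.1% in UBR7KO 2 and 44.8% in parental 2. Zinc finger genes, taken as 430 ZNF symbols, were open for 67.2% in UBR7KO 1 and 48.6% in parental 1, and for 84.7% in UBR7KO 2 and 81.2% in parental 2.

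The start of UBR7 itself (ENSG00000012963, chromosome 14, position 93673401) was covered by a peak in each library. The peaks at the start held 555 and 563 bases in UBR7KO 1 and 2, and 352 and 589 bases in parental 1 and 2, and the genotypes overlapped. A peak at the start does not check a knockout made inside the gene. UBR7 RNA stood at 27.0, 26.3 and 64.5 CPM (reads per gene scaled to a common library total) in UBR7KO libraries KO1-1, KO1-2 and KO2-1, and at 55.0, 62.2 and 62.2 CPM in parental 1, 2 and 3. The library that shares its code with the ATAC libraries thus had more UBR7 RNA than any parental library, so the RNA does not check the label of that line.

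Histone chaperone genes were open at most of their 29 starts, with 23 in UBR7KO 1 and 17 in parental 1, and 27 in UBR7KO 2 and 27 in parental 2. In replicate number 1, ATRX, CDAN1, HIRA, MCM2, MMS22L, NASP and SSRP1 were open in UBR7KO and not in parental cells, and IPO4 the other way round. In replicate number 2 no chaperone start differed. NASP, which binds H3 and H4, had 560 and 1556 open bases at its start in UBR7KO 1 and 2, and 0 and 1345 in parental 1 and 2. HIRA, which deposits the variant H3.3, had 251 and 929 open bases in UBR7KO 1 and 2, and 0 and 806 in parental 1 and 2. ASF1A had 1201 and 1374 open bases in UBR7KO 1 and 2, and 342 and 1374 in parental 1 and 2. ASF1B had 872 and 990 in UBR7KO, and 742 and 699 in parental cells, so both UBR7KO values lay above both parental ones. The CAF-1 subunit CHAF1A had 237 and 296 in UBR7KO, and 240 and 295 in parental cells. For comparison with the 7 of 29 chaperone starts, 17.3% of all starts were open in UBR7KO alone in replicate number 1. At equal list lengths 5 chaperone starts were open in UBR7KO alone and 5 in parental cells alone in replicate number 1. Of all 14162 starts, 1642 and 2308 were then open in UBR7KO alone and in parental cells alone. Only the UBR7KO list was cut for this. Of the 5 parental chaperone starts, IPO4 alone lacked a UBR7KO 1 peak before the cut.

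None of 40 measured starts of replication-dependent histone genes, which package new DNA in S phase, differed in both replicate numbers. Open were 30 starts in UBR7KO 1 and 30 in parental 1, and 38 in UBR7KO 2 and 39 in parental 2. In replicate number 1, 6 starts were open in UBR7KO alone, 5 of them H4 genes such as HIST1H4C and HIST4H4, and 6 in parental cells alone, among them HIST1H1C, HIST1H1D and HIST1H1E. Over all starts the shares in replicate number 1 were 17.3% in UBR7KO alone and 2.48% in parental cells alone. Lists of equal length gave 6 and 10 histone starts, and 1642 and 2308 of all 14162 starts. Only the UBR7KO list was cut, and before the cut 6 of these 10 were open in parental cells alone. Many replication-dependent histone genes lie close together and some are near-identical, so some reads may be shared. Of 11 replacement histone variants, 8 were open in UBR7KO 1 and 8 in parental 1, and 11 in UBR7KO 2 and 9 in parental 2, where H1F0 and H1FX made the difference. Of 18 genes for H3K4 methylation, the mark of active starts, 14 were open in UBR7KO 1 and 10 in parental 1, and 17 in UBR7KO 2 and 16 in parental 2.

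Ribosomal protein genes, which are among the most expressed genes of any cell, were open at 57 of 75 starts in UBR7KO 1 and 38 in parental 1, and at 70 in UBR7KO 2 and 71 in parental 2. In replicate number 1, 22 were open in UBR7KO alone (29.3%, against 17.3% of all starts) and 3 in parental cells alone. DNA replication genes were open at 32 of 37 starts in UBR7KO 1 and 23 in parental 1, and at 32 in UBR7KO 2 and 33 in parental 2. HOX genes, which set position along the body axis, were open at 12 of 34 starts in UBR7KO 1 and 7 in parental 1, and at 21 in UBR7KO 2 and 21 in parental 2. Polycomb genes were open at 19 of 25 starts in UBR7KO 1 and 18 in parental 1, and at 21 in UBR7KO 2 and 22 in parental 2. In replicate number 1, 9 replication, 8 HOX and 3 Polycomb starts were open in UBR7KO alone, and 0, 3 and 2 in parental cells alone. Over all starts these shares were 17.3% and 2.48%. With all peaks the direction differed between replicate numbers for ribosomal, replication and Polycomb genes. In number 2 it rested on 1 start each (RPL23, RFC1 and RING1), where 1.35% of all starts were open in parental cells alone. For the equal lengths given next only the UBR7KO lists were cut. With equal list lengths replication genes were lower in UBR7KO in both numbers, with 21 starts in UBR7KO 1 and 23 in parental 1, and 32 in UBR7KO 2 and 33 in parental 2. Polycomb genes were lower too, with 15 in UBR7KO 1 and 18 in parental 1, and 21 in UBR7KO 2 and 22 in parental 2. Ribosomal protein genes still differed in direction, with 44 in UBR7KO 1 and 38 in parental 1, and 67 in UBR7KO 2 and 71 in parental 2. RPL23 was the member of these lists that was open in parental cells alone in both replicate numbers. RFC1, a clamp loader subunit, and HOXB5 were open in UBR7KO alone in replicate number 1 and in parental cells alone in number 2, as was the cadherin CDH1.

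UBR box genes, which share the substrate-binding domain of UBR7, were open at 5 of 7 starts in UBR7KO 1 and 6 in parental 1, and at 7 in UBR7KO 2 and 6 in parental 2. UBR1, a ubiquitin ligase of the N-degron pathway, made both differences, in opposite directions. Of 23 p53 target genes 18 were open in UBR7KO 1 and 12 in parental 1, and 20 in UBR7KO 2 and 18 in parental 2. The death receptor gene FAS and the apoptosis gene BAX were among the 6 open in UBR7KO alone in replicate number 1, and GDF15 was among the 2 in number 2, where all starts had shares of 17.3% and 3.77%. Cholesterol synthesis genes were open at 18 of 23 starts in UBR7KO 1 and 18 in parental 1, and at 20 in UBR7KO 2 and 21 in parental 2. Of 12 cadherin and epithelial-mesenchymal genes 9 were open in UBR7KO 1 and 6 in parental 1, and 10 in UBR7KO 2 and 11 in parental 2. Of 13 interferon-stimulated genes 5 were open in UBR7KO 1 and 3 in parental 1, and 8 in UBR7KO 2 and 7 in parental 2. With equal list lengths 16 p53 targets were open in UBR7KO 1 and 12 in parental 1, and 20 in UBR7KO 2 and 18 in parental 2, so the order was kept. For interferon-stimulated genes 3 were then open in UBR7KO 1 and 3 in parental 1, and 5 in UBR7KO 2 and 7 in parental 2, so the order was lost.

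Wnt and BMP signalling genes were open at 14 of 23 starts in UBR7KO 1 and 9 in parental 1, and at 21 in UBR7KO 2 and 17 in parental 2. In replicate number 1, BMP7, ID1, ID2, NOG, RNF43 and SMAD6 were open in UBR7KO alone and the receptor gene BMPR1B in parental cells alone. In replicate number 2, APC2, BMP2, BMP7 and ID3 were open in UBR7KO alone. These were 6 and 4 of 23 starts, where all starts had shares of 17.3% in replicate number 1 and 3.77% in number 2. BMP7, a bone morphogenetic protein ligand on chromosome 20, was the member of this list open in UBR7KO alone in both replicate numbers. Its nearest parental peaks lay 443254 bases away in parental 1 and 84494 bases away in parental 2. BMP7 RNA stood at 44.3, 41.0 and 48.1 CPM in KO1-1, KO1-2 and KO2-1, and at 39.2, 40.4 and 44.3 CPM in parental 1, 2 and 3. In lists of equal length 10 starts were open in UBR7KO 1 and 9 in parental 1, and 20 in UBR7KO 2 and 17 in parental 2.

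Genes named for a difference in RNA between the genotypes had few peaks at their starts. SFRP1, SNX19, ZNF883 and the homeobox gene UNCX had no peak within 1 kb in any library. Of all starts 16.2% had no peak in any library, and of those in the lowest class of RNA level 35.0%. SFRP1, SNX19, ZNF883 and BMP2 belong to that lowest class. Whether the lack of peaks is tied to a change in RNA was not tested. BMP2 had 593 open bases at its start in UBR7KO 2 and none in the other libraries, although its RNA was 1.33, 0.55 and 0.50 CPM in KO1-1, KO1-2 and KO2-1, and 7.48, 3.701 and 3.91 CPM in parental 1, 2 and 3. BEX1 had 238 open bases in parental 2 and none elsewhere. ZNF462 had 93 open bases in UBR7KO 2 and 284 in parental 2, and none in UBR7KO 1 and parental 1. The cadherin CDH4 is not among the starts scored here.

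In the 8794 regions open in all 4 libraries, UBR7KO peaks were wider than parental peaks, and more so in replicate number 1. The median region had 572 open bases in UBR7KO 1 and 425 in parental 1, and 757.5 in UBR7KO 2 and 726 in parental 2. The median log2 difference was 0.36 in replicate number 1 and 0.06 in number 2, and 71.6% and 57.1% of the regions were wider in UBR7KO. In both replicate numbers 3596 regions (40.9%) were wider and 1064 (12.1%) narrower in UBR7KO, before the libraries were set to a common median. At gene starts the median was 601 bases in UBR7KO 1 and 444 in parental 1, and 793 in UBR7KO 2 and 760 in parental 2. Distal regions had medians of 417 bases in UBR7KO 1 and 328 in parental 1, and 577 in UBR7KO 2 and 539 in parental 2.

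**Figure D4:**
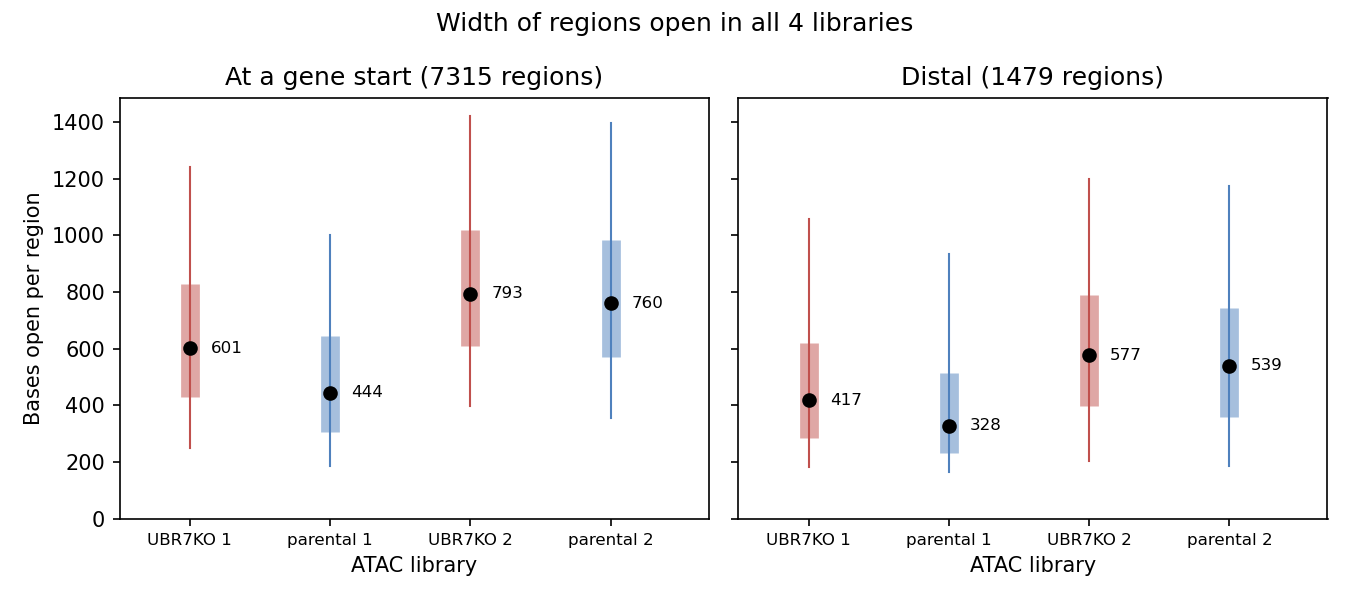
Open bases per region in the 8794 regions open in all 4 libraries, at gene starts (left) and distal (right). Points are medians, thick bars run from the 25th to the 75th and thin lines from the 5th to the 95th percentile, and the UBR7KO median lies above the parental one within each replicate number (601 and 444 bases in replicate number 1 at gene starts).

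After each library was set to its own median, limma with Benjamini-Hochberg adjustment called 0 regions wider and 0 narrower in UBR7KO at an adjusted p under 0.05 (0% of 8794 regions each way), with 198 wider and 169 narrower at an unadjusted p under 0.05. The lowest adjusted p was 0.9998. Without centring the median log2 change was 0.22 and the counts were again 0 and 0, with 151 and 16 at an unadjusted p under 0.05. Without UBR7KO 1 and without UBR7KO 2 limma called 0 wider and 4 narrower regions each time, with the lone UBR7KO library assumed to vary like the parental ones.

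The regions with the largest changes are therefore given as values. They were chosen by these same widths, so a gap between the genotypes in them follows largely from the choice. At TMEM121B, a transmembrane protein gene on chromosome 22, 634 and 800 bases were open in UBR7KO 1 and 2, and 163 and 109 in parental 1 and 2. A region 64.337 kb from DKK2, a secreted modulator of Wnt signalling, had 863 and 1225 bases in UBR7KO 1 and 2, and 180 and 237 in parental 1 and 2. NBEA, neurobeachin, had 1703 and 2063 bases in UBR7KO 1 and 2, and 521 and 434 in parental 1 and 2. In these regions both UBR7KO values exceeded both parental values, as at TOX, an HMG-box factor, and in the region nearest the pseudogene LSP1P4, which belongs to a family of near-identical copies.

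On the other side, DDIT3, the stress-induced transcription factor CHOP, had 194 and 289 open bases at its start in UBR7KO 1 and 2, and 872 and 957 in parental 1 and 2. Its log2 change after centring was −2.19 (SE 0.43, limma adjusted p = 0.9998). NUFIP2, an RNA-binding protein gene, had 285 and 415 bases in UBR7KO 1 and 2, and 1745 and 969 in parental 1 and 2. A region 6.470 kb from SKAP2, an adaptor protein gene, had 168 and 173 bases in UBR7KO 1 and 2, and 628 and 659 in parental 1 and 2. DHRS11, a dehydrogenase gene, had 236 and 97 bases in UBR7KO 1 and 2, and 523 and 462 in parental 1 and 2. The region with the largest loss lay on chromosome 1 nearest a U1 RNA gene, one of a family of near-identical copies, with 303 and 180 bases in UBR7KO 1 and 2, and 1701 and 1395 in parental 1 and 2. In these 5 regions, chosen by the same widths, both UBR7KO values lay below both parental ones. NUFIP2 and DHRS11 lie on chromosome 17 beyond 20 Mb.

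RNA was set beside the ATAC pattern as a separate readout, with no test. In these bulk libraries fewer cells with a transcript and less transcript per cell cannot be told apart. Genes with a start open in UBR7KO alone had a median mean level of 7.00 CPM, those open in parental cells alone 13.4 CPM, those open in all 4 libraries 32.0 CPM and those open in none 4.71 CPM. In the pair of KO2-1 and parental 3, which carries the code of the ATAC line, 74 of the 110 genes (67.3%) had more RNA in KO2-1, against 47.4% of all genes. Their median log2(CPM + 1) difference was 0.09, against −0.02 over all genes. In the pairs of KO1-1 with parental 1 and of KO1-2 with parental 2, 50.0% and 59.1% of the 110 genes were higher in UBR7KO, against 49.3% and 62.4% of all genes. Of the 9 genes open in parental cells alone, 1 was higher in KO2-1 than in parental 3, with a median difference of −0.34, and 7 and 4 were higher in the other pairs. With lists of equal length, 60.0% of 55 genes and 35.8% of 120 genes were higher in KO2-1. PSD4 had 4.36, 2.98 and 1.95 CPM in KO1-1, KO1-2 and KO2-1, and 4.01, 3.02 and 1.89 CPM in parental 1, 2 and 3. CDKAL1 had 43.9, 47.2 and 42.6 CPM in KO1-1, KO1-2 and KO2-1, and 47.9, 43.9 and 32.1 CPM in parental 1, 2 and 3. RPL23 had 792, 710 and 451 CPM in KO1-1, KO1-2 and KO2-1, and 708, 692 and 639 CPM in parental 1, 2 and 3.

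**Figure D5:**
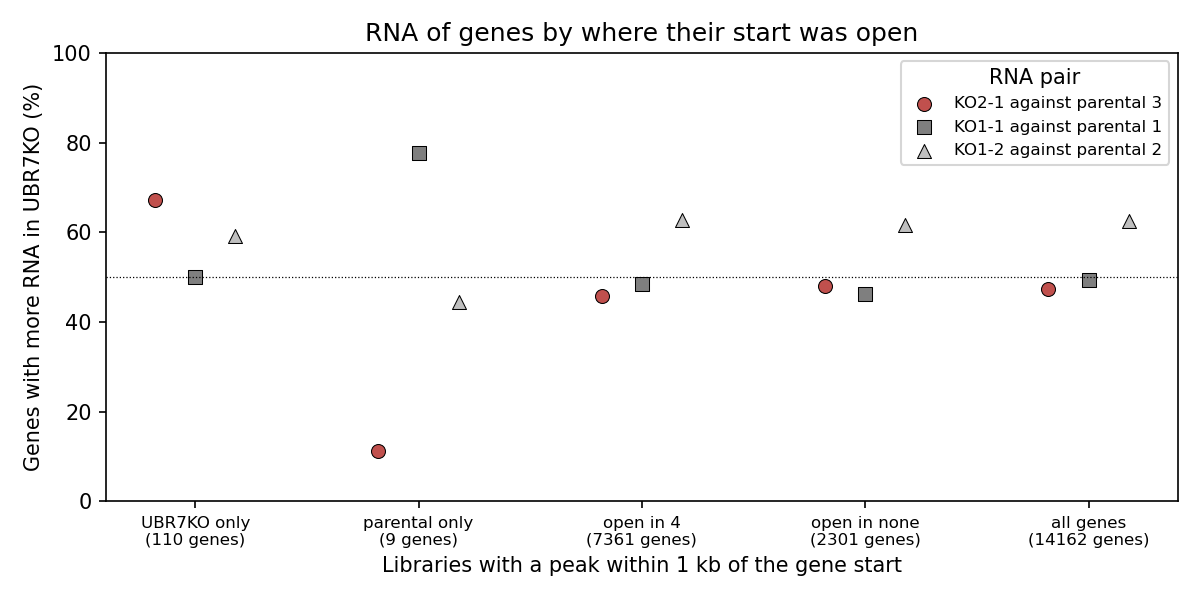
Share of genes with more RNA in UBR7KO than in parental cells, by the libraries in which the gene start was open, for 3 RNA pairs. Of the genes open in UBR7KO alone 67.3% were higher in KO2-1 than in parental 3, and of all genes 47.4%, while the other pairs gave 50.0% and 59.1% against 49.3% and 62.4%.

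Some chromosome segments carried unequal shares of the peaks. They were not found by a scan here but chosen because earlier results of these data had described them as shifted. Unequal shares in them thus follow at least in part from the choice. Chromosome 17 beyond 20 Mb held 3.31% of the peaks of UBR7KO 1 and 3.63% of those of parental 1, and 2.23% in UBR7KO 2 and 3.12% in parental 2. It held 4 of the 11 parental regions at gene starts, among them RPL23 and SRCIN1, and its genes had a median log2(CPM + 1) difference of −0.34 between KO2-1 and parental 3. Chromosome 2 below 90 Mb held 2.34% of the peaks in UBR7KO 1 and 2.93% in parental 1, and 1.82% in UBR7KO 2 and 2.76% in parental 2, with a median RNA difference of −0.38. Chromosome 6 between 40 and 100 Mb held 1.49% in UBR7KO 1 and 1.15% in parental 1, and 1.66% in UBR7KO 2 and 1.23% in parental 2, with a median RNA difference of 0.22. These segments held 29 of the 588 UBR7KO regions and 12 of the 98 parental regions, and without them 559 and 86 were left. By segment these were 13 and 10 on chromosome 17, 4 and 2 on chromosome 2, and 12 and 0 on chromosome 6. The segments' share of all regions was not counted, so these counts have no background to be read against. Chromosome 17 as a whole held 3.19% of all regions, 3.57% of the UBR7KO regions and 11.2% of the parental regions. For chromosome 2 these shares were 7.67%, 8.33% and 6.12%, and for chromosome 6 they were 6.89%, 8.16% and 5.10%. The part that these segments have in the results was not tested.

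Sites bound by GFP-tagged UBR7, from 1 ChIP-seq library of cells whose own UBR7 carries a GFP tag, numbered 5895. A peak overlapped 55.4% of them in UBR7KO 1 and 37.6% in parental 1, and 72.7% in UBR7KO 2 and 68.9% in parental 2. Of the regions open in all 4 libraries 27.1% held such a site, against 6.95% of all regions. Of the UBR7KO regions 40 of 588 (6.80%) held one and of the parental regions 2 of 98 (2.04%). Shared regions with a site had a median log2 width difference of 0.36 in replicate number 1 and 0.06 in number 2, and those without one 0.36 and 0.06.

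Of 12 HEK293T markers 11 were in the RNA table, with a summed level of 808 to 1172 CPM in UBR7KO and 741 to 1137 CPM in parental libraries. Their starts were open for 5 in UBR7KO 1 and 4 in parental 1, and for 10 in UBR7KO 2 and 10 in parental 2. Of 8 fibroblast markers 4 were listed, summing to 7.95 to 16.4 CPM in UBR7KO and 16.2 to 22.8 CPM in parental libraries, and of 12 blood markers 2 were listed, summing to 2.69 to 3.37 and 1.90 to 3.16 CPM. No keratinocyte or liver marker was in the table.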

How the data were processed

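ATAC-seq and RNA-seq libraries of HEK293T cells were used, with 1 GFP ChIP-seq peak list. The CUT&RUN samples were not analysed here. The members and gene lists were chosen with earlier results of these data known. Per the labels, ATAC libraries were read as 50 bp single ends. The submitters' processing notes name MACS2, Bowtie, Bowtie2 2.3.1, Trim Galore, Picard, SAMtools 1.3.1, bedtools and deepTools without roles, and hg19 and hg38 among the builds. Coordinates of the files are GRCh37-type and are given from 1.

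Broad peaks were deposited per library, with a −log10 q from the peak caller for each one, used here to rank or filter peaks within a list. The lists include weak peaks, down to a −log10 q of 0.050 in parental 1 and 0.015 in parental 2. The score of the deposited replicate-intersected sets equals the summed scores of the peaks behind a region, checked for all regions. The scores of the deposited GFP-UBR7 list and of the authors' list of gene starts were not used. The authors' list of starts carries cluster labels made from these ATAC data: all starts of its clusters 1 to 3 were open in both UBR7KO libraries. Openness per gene was therefore scored on the 14162 gene starts of the RNA table. That table holds CPM, scaled by the authors to the library total. RNA pairs were KO2-1 with parental 3, KO1-1 with parental 1 and KO1-2 with parental 2, after shared dates or the lack of one in the labels.

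Regions of the 4 lists were joined where they share 1 base. A start was open with a peak within 1 kb. Widths were compared as log2 open bases, centred on the library median, with limma 3.58.1 (trend and robust) in R 4.3.3 and Benjamini-Hochberg adjustment, tested first on simulated widths. Other steps used Python 3.11.15, numpy 2.4.6 and pandas 2.3.3. For single values a two-sided exact permutation test was run over the 4 libraries. Alternatives were −log10 q of at least 5, lists of equal length within a replicate number, overlap of 50% of the shorter interval, a window of 2.5 kb, each library or replicate number left out, a replicate block and other limma settings. For lists of equal length only the UBR7KO lists lost peaks, those of lowest −log10 q, since the parental lists were the shorter ones. Other starts, the segments left out and the distance to the other genotype were added after seeing the data.

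Named were UBR7, 13 fixed genes, the 10 gene-start and 5 distal regions per direction with the highest smaller rank of −log10 q in the 2 libraries, the 5 largest width changes each way since none was called, and up to 3 members per list whose start differed in both replicate numbers. Other list members were named after their values were seen. RefSeq promoters were found for 78 of the 110 genes open in UBR7KO alone, too few for a comparison of promoter content.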

Additional observations from a re-analysis of the deposited data

How the results depend on the processing

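Of 113 alternative values, 68 kept their direction or size, 37 moved and 8 turned. Every turn came from lists of equal length or from leaving out 1 library. For equal lengths only the UBR7KO lists, the longer ones, were cut. With equal lengths, the count of regions open in UBR7KO alone was 280 and in parental cells alone 354 (a ratio of 0.791), the gene starts open in 1 genotype alone were 55 and 120, the difference in open gene starts was −3.60 points, and the shares of peaks found in the other genotype were 59.9% (59.93% for UBR7KO and 59.91% for parental peaks). With −log10 q of at least 5 the counts of regions were 45 and 15, the gene starts open in UBR7KO alone numbered 30, and the shares of peaks found in the other genotype were 3.61% for UBR7KO and 7.25% for parental peaks. With an overlap of 50% of the shorter interval, 829 UBR7KO and 151 parental peaks of replicate number 1 were open in 1 genotype alone. With that overlap 54.9% of UBR7KO peaks were found in the other genotype, and 58.3% of the UBR7KO set and 85.3% of the parental set were shared.

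The replicate block gave a ratio of peak numbers of 1.32. It gave differences of −5.91 points in the share of peaks at gene starts and 8.62 points in open gene starts. For each of these the exact permutation p within replicate numbers was 0.5, the smallest possible. In limma the block gave 0 wider and 1 narrower region (the U1 region, adjusted p = 0.0271). The main tests did not take the replicate numbers to pair the libraries. Same-numbered libraries deviated together with a correlation of 0.0985 across regions, after each library was set to its own median. That step removes any shift shared by a replicate number, so this value cannot show that pairing is absent. Leaving out a library or a replicate number gave ratios of peak numbers of 0.624 to 2.91, differences of −28.2 to 16.3 points at gene starts and of −3.96 to 21.2 points in open gene starts. It gave 620 to 19962 UBR7KO regions, 116 to 12673 parental regions and ratios of 0.04998 to 171 between them. Gene starts open in 1 genotype alone ran from 124 to 2449 for UBR7KO and from 12 to 351 for parental cells. Peaks found in the other genotype ran from 56.5% to 57.3% for UBR7KO and from 67.1% to 83.6% for parental cells, and narrower regions from 0 to 4. The lowest adjusted p of limma ran from 1.9e-05 to 0.99997 over its settings. The cause of these changes was not tested. The width test could not be run with −log10 q of at least 5, where 1 region was open in all 4 libraries, or without a replicate number, which leaves 1 library per genotype. The number of libraries and the unknown read depth limit each comparison.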
